A study of Homo sapiens with 4 samples.

Results

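The 34 genes described here encode the BCL2 family, the caspases and the proteins that signal to them, and they were picked by name, each row being found by its NCBI Gene ID among the 18882 gene IDs of the 4 libraries. By role, 9 are pro-survival, 23 are pro-death, and BCL2L12 and RIPK1, which have roles in both directions, were kept apart as mixed. RNA was compared between BT-474, a luminal B-like human breast cancer line with amplified ERBB2 that was left untransfected (control, wild-type, replicates 1 and 2), and BT-474 NRP-1, the same line stably carrying a neuropilin-1 expression plasmid (replicates 2 and 3). Both were grown in RPMI-1640 with serum, and Geneticin selection was applied to the plasmid-bearing cells, which per the methods were isolated as colonies from pPTuner IRES2 transfections, with no word on how many colonies each library holds. Because no library of empty-vector cells was analysed here, NRP-1, the plasmid and its selection cannot be told apart, and the text used here does not state whether the 2 libraries of a group came from separate cultures, so p-values measure the spread between these libraries only.

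Cell death by the mitochondrial route is held back by guardians (BCL2, BCL-XL, BCL-W, MCL1 and A1), which bind the pore formers BAK and BAX and the BH3-only proteins that activate or release them. Once the outer membrane opens, cytochrome c joins APAF1 and caspase-9 in the apoptosome, and DIABLO and HTRA2 relieve executioner caspases of inhibition by IAP proteins. The second route starts at the cell surface, where TRAIL and related ligands assemble death receptors, FADD and caspase-8 or caspase-10 into a complex restrained by cFLIP. ERBB2-driven breast cells are known to depend strongly on MCL1 and BCL-XL and to kill themselves through BIM when the receptor is blocked.

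The libraries held 8243595 to 8448926 expected counts over 17239 to 17321 listed genes. NRP1, the transfected gene, had 7 and 8 control reads against 103 and 62 in NRP-1 cells (log2 fold change 3.38 with SE 0.42, edgeR adjusted p = 0.044), a call that was lost without the filter on low counts, in limma on FPKM and without either control library. All 9 luminal markers were listed, with a summed level of 4691 to 5659 FPKM (fragments per kilobase, scaled to library size). ESR1 and GATA3 were small parts of that sum and differed between the NRP-1 libraries. In control replicates 1 and 2 and NRP-1 replicates 2 and 3, ESR1 had 7.39, 8.16, 5.04 and 13.54 FPKM. GATA3 had 7.23, 7.26, 26.6 and 11.1 in the same order. Of the 6 fibroblast markers 3 were listed, at 26.98 to 35.22 FPKM and nearly all COL1A1, with DCN, PDGFRB and THY1 in no library. The leukocyte list had 1 of 4 markers listed (0.73 to 1.38 FPKM, with CD3E and CD14 in no library) and the endothelial list 3 of 3 (0.74 to 1.47 FPKM). The part of these markers in the results was not tested.

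Promoters are shown for 4 members: BCL2L1 and BCL2, guardians that stood far apart in level, and RIPK1 and BMF, the tested members with the lowest adjusted p in each direction. Each window runs from 250 bases before to 50 after the annotated start (RefSeq, GRCh38.p14), 5′ to 3′ on the gene's strand, and capitals mark matches to GGGCGG (the GC box), to CCAAT (bound by NF-Y), to TATAAA (the core promoter motif bound by TBP) or to TGATGCAA (a CHOP-ATF4 site), on either strand and with overlapping matches counted separately.
BCL2L1, chr20:31723914-31724213, minus strand: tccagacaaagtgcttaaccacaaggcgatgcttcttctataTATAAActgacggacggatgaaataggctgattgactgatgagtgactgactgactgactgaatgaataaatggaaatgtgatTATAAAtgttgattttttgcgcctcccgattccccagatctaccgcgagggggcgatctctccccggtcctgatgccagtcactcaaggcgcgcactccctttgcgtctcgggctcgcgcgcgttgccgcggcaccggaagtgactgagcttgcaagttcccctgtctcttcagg
BCL2, chr18:63319720-63320019, minus strand: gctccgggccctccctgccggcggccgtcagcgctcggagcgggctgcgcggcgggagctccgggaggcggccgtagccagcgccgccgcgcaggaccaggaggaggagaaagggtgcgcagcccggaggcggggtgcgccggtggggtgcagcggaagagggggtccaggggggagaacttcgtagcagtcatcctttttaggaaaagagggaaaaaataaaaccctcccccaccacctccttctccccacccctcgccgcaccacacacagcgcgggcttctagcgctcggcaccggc
RIPK1, chr6:3063717-3064016, plus strand: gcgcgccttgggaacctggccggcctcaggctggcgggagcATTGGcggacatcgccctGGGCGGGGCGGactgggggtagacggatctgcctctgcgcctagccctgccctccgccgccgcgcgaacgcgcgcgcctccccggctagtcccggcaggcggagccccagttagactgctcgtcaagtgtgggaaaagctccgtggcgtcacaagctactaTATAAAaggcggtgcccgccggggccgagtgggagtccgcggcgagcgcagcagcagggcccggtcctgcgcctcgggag
BMF, chr15:40108830-40109129, minus strand: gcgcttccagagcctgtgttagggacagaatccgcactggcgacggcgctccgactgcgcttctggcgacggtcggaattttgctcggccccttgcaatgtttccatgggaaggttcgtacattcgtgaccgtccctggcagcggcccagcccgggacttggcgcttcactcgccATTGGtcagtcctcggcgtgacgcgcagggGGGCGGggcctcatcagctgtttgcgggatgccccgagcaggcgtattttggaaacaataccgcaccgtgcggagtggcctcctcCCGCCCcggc

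Of the 34 members, 28 had a promoter in that table, which holds 27305 promoters, those of noncoding genes included. GGGCGG stood in 21 of the 28 (75.0%) against 44.6% of all promoters, CCAAT in 10 (35.7%) against 35.7%, and TATAAA in 4 (14.3%) against 12.0%. TGATGCAA was found in 1 member promoter, that of BCL2A1 (3.57% against 0.923%). The BCL2L1 window held TATAAA at 2 places and was 52.0% G or C with 20 CpG. The BCL2 window held none of the 4 motifs at 70.7% G or C, whereas that of RIPK1 (72.0%) held GGGCGG at 2 places, CCAAT once and TATAAA once, and that of BMF (65.0%) held GGGCGG at 2 places and CCAAT once. These matches describe letters in a window and say nothing of which factors bind.

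Transcripts of 33 members were listed in at least 1 library, BCL2A1 in none, and 31 passed the filter on low counts and were tested. The 2 listed but not tested were BCL2, which had 3, 3, 2 and 4 reads in control replicates 1 and 2 and NRP-1 replicates 2 and 3 (the order of all such values here), and HRK, a BH3-only gene, which had 10, 3, 3 and 0. With so few reads no difference could be detected in either gene at this depth. In control cells MCL1 stood highest per transcript length, at 130 ± 0.438 FPKM (SD, n = 2), followed by BCL2L1 at 55.8 ± 3.29, CYCS at 44.6 ± 2.60 and BAD at 44.2 ± 0.156. CASP10 (1.32 FPKM) and CASP9 (3.12 FPKM) were the lowest of the tested members, and BCL2, at 0.10 FPKM, was the lowest of all listed.

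**Figure D1:**
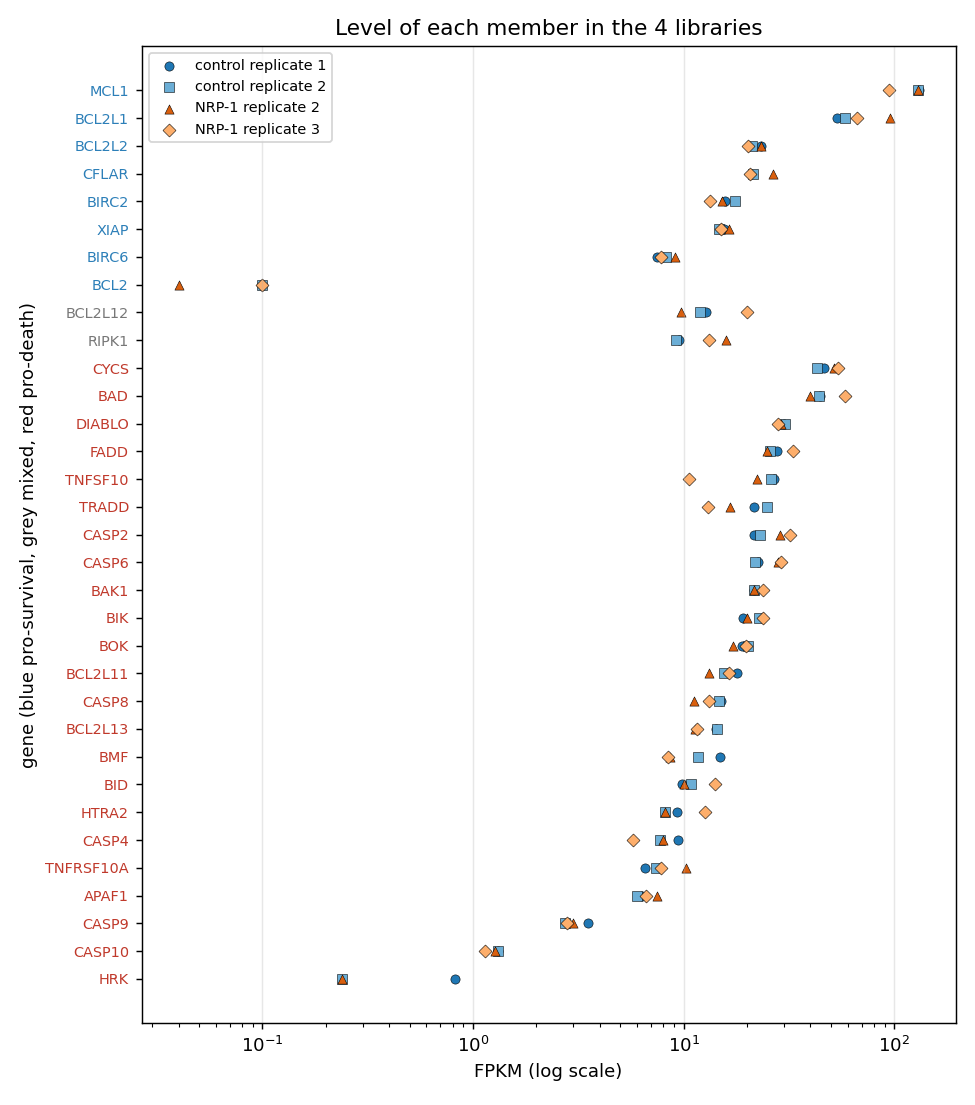
FPKM on a log axis of the 33 listed members in each of the 4 libraries, with gene names in blue for pro-survival, grey for mixed and red for pro-death members. MCL1 and BCL2L1 lie at the top of the range and BCL2 at the bottom, and a value of 0 (HRK in NRP-1 replicate 3) has no point on this axis.

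None of the 31 tested members was called at an adjusted p under 0.05 in edgeR, where 1.09% of the 14298 genes tested were called (0.413% higher and 0.678% lower), and DESeq2 called none of them either while calling 6.67% of all genes. At an unadjusted p under 0.05 edgeR gave 6 members, 3 higher and 3 lower, beside 22.9% of all genes (10.8% higher and 12.1% lower). They were RIPK1, CASP2 and BCL2L1 on the higher side and BMF, TRADD and BCL2L13 on the lower. The lowest adjusted p of any member was 0.0965 (BMF). The study's own cut-off, an adjusted p of at most 0.001 with a log2 fold change of at least 2 in size, was passed by 0 of the 14298 genes in edgeR and so cannot separate the members from the rest. When NRP-1 replicate 2 was left out edgeR called 11 members beside 36.8% of all genes, and 9 beside 28.2% when replicate 3 was, the spread then being that of the control pair alone. Leaving out either control library gave 0 members and 0 of all genes.

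The members' log2 fold changes ranged from -0.72 to 0.61, with a median of 0.03 (17 above 0 and 14 below) beside 0.02 over all genes tested. For the 7 tested pro-survival members the median was 0.04, with 4 above 0, and for the 22 tested pro-death members it was -0.05, with 11 on each side. The 95% interval, not adjusted for the number of genes, lay within 1 log2 unit of 0 for 26 of the 31 members (83.9%). The share was 63.6% of all genes and 76.4% of the 11531 that averaged 50 reads or more, as every tested member did. A change of more than 2-fold is therefore outside the interval for those 26, and inside or at the edge of it for BCL2L12, BMF, TRADD, TNFSF10 and CASP4. A log2 fold change of at least 0.5 in size was seen in 5 members (16.1%), beside 26.4% of all genes and 21.1% of the 11531 that averaged 50 reads or more.

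**Figure D2:**
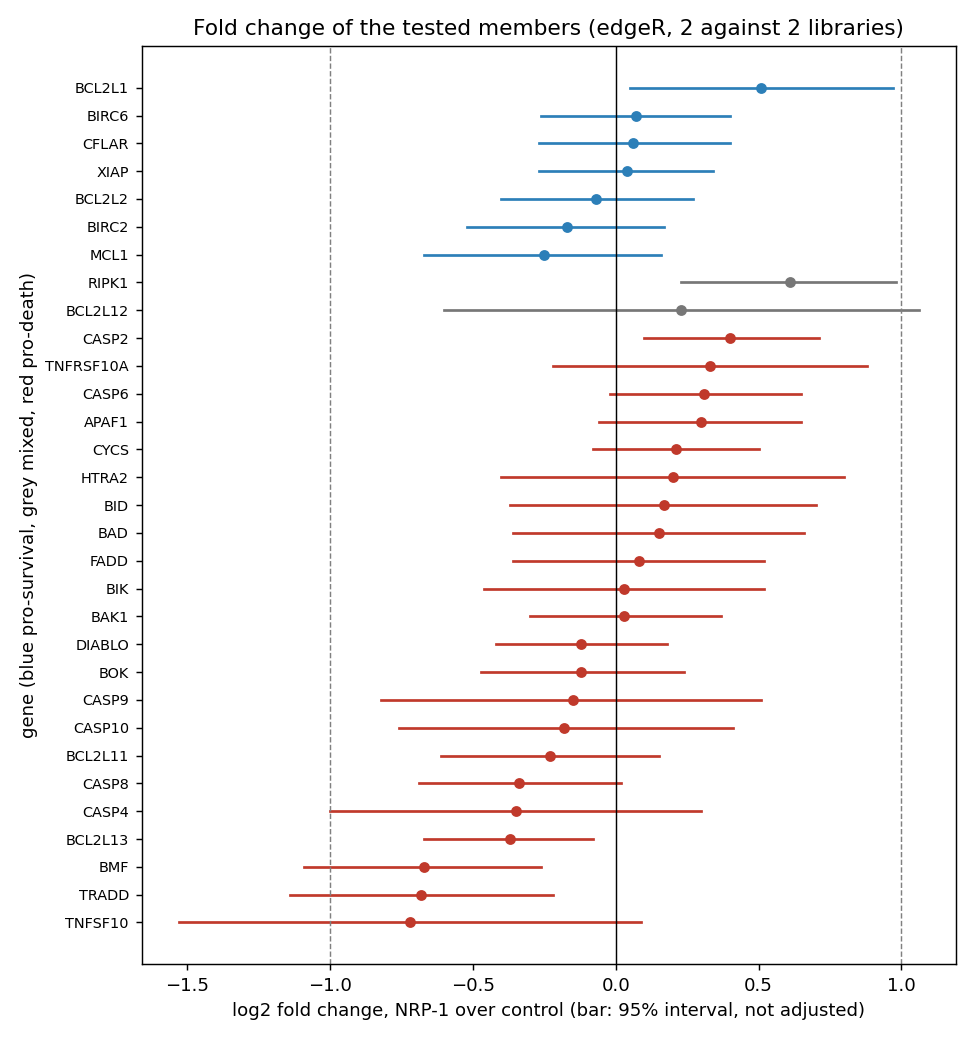
Log2 fold change of NRP-1 over control for the 31 tested members, with unadjusted 95% intervals as bars, blue for pro-survival, grey for mixed and red for pro-death members, and dashed lines at -1 and 1. The points run from -0.72 (TNFSF10) to 0.61 (RIPK1), and 26 bars stay within the dashed lines.

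Among the guardians, no tested gene was called. Their summed FPKM overlapped between the groups, while the shares of BCL2L1 and MCL1 in it, chosen with the values known, did not. MCL1, a short-lived guardian, had 4451 and 4456 control reads against 4463 and 3313 in NRP-1 cells. Only NRP-1 replicate 3 stood apart, and in FPKM (130.39, 129.77, 130.11 and 94.80) the groups overlapped. The log2 fold change was -0.25 (SE 0.17, 95% interval -0.67 to 0.16, edgeR adjusted p = 0.422), and it was -0.50 with NRP-1 replicate 2 left out and -0.05 with replicate 3 left out.

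BCL2L1, which encodes BCL-XL, had 1130 and 1240 control reads against 2066 and 1454 in NRP-1 cells, or 53.52, 58.17, 95.85 and 66.71 FPKM. Both NRP-1 libraries lay above both controls, with replicate 2 well above replicate 3. The log2 fold change was 0.51 (SE 0.19, 95% interval 0.05 to 0.97, edgeR adjusted p = 0.184), and it was 0.23 with NRP-1 replicate 2 left out and 0.75 with replicate 3 left out. BCL2L2, encoding BCL-W, had 691, 630, 703 and 613 reads and overlapped between the groups (log2 fold change -0.07, edgeR adjusted p = 0.816). It held 42.5 to 45.5% of the reads that it and the readthrough gene BCL2L2-PABPN1 had together, and reads of this pair could have been split between them in counting.

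The summed FPKM of the 5 guardians was 207, 209, 249 and 182, so the groups overlapped. Within that sum BCL2L1 supplied 25.8% and 27.8% in control cells and 38.4% and 36.7% in NRP-1 cells. MCL1 supplied 62.9% and 62.1% against 52.2% and 52.1%. Although the 2 NRP-1 libraries disagreed on the level of each gene, they were close on the balance between them: the ratio of BCL2L1 to MCL1 was 0.410 and 0.448 in control cells and 0.737 and 0.704 in NRP-1 cells. The exact permutation p was 0.33 for this ratio and for both shares (two-sided), the smallest that 2 against 2 libraries can give, so none can pass 0.05. These ratios were chosen with the members' values known, and no share of non-overlapping ratios over all genes was computed to set beside them.

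**Figure D3:**
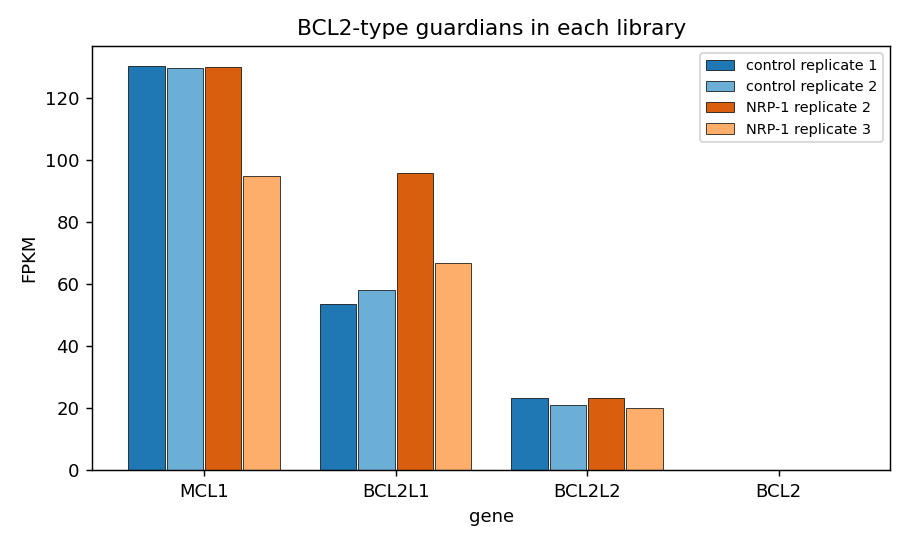
Bars from 0 give the FPKM of MCL1, BCL2L1, BCL2L2 and BCL2 in each library. BCL2L1 is higher in both NRP-1 libraries (95.85 and 66.71) than in the controls (53.52 and 58.17), MCL1 is lower only in NRP-1 replicate 3 (94.80), and BCL2 is too low to be seen.

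Of the BH3-only members, BMF had the largest fold change in size. It encodes a sensor tied to the cytoskeleton, and it had 577 and 449 control reads against 339 and 332 in NRP-1 cells. The NRP-1 libraries were nearly level with each other and below both controls (log2 fold change -0.67, SE 0.17, 95% interval -1.09 to -0.26, edgeR adjusted p = 0.0965, DESeq2 adjusted p = 0.068). Over the omission of each library in turn the fold change ran from -0.85 to -0.47, both ends coming from the omission of a control library, since the controls were farther apart than the NRP-1 libraries. BCL2L11, which encodes BIM, a binder of every guardian, had 749, 668, 565 and 697 reads, with NRP-1 replicate 3 between the controls (log2 fold change -0.23, SE 0.16, edgeR adjusted p = 0.432). The FPKM ratio of MCL1 to BCL2L11 was 7.28, 8.31, 9.86 and 5.75, so the groups overlapped. That of BCL2L1 to BCL2L11 was 2.99, 3.72, 7.26 and 4.04, higher in both NRP-1 libraries.

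BAD, whose protein is silenced by survival kinases, had 357, 360, 335 and 494 reads, and BID, which links death receptors to mitochondria, had 181, 202, 185 and 263. In both, NRP-1 replicate 3 was the highest library and NRP-1 replicate 2 lay near or below the controls (log2 fold changes 0.15 and 0.17, edgeR adjusted p = 0.709 and 0.692). BIK, encoding a BH3-only protein of the endoplasmic reticulum, had 149, 180, 158 and 191 reads (log2 fold change 0.03). The summed FPKM of 6 BH3-only members (BCL2L11, BAD, BID, BIK, BMF and HRK) was 107, 105, 91.9 and 121, so the NRP-1 libraries lay on either side of the controls. This sum is not the level of all BH3-only genes. It leaves out BBC3 (25.94, 28.71, 8.99 and 5.99 FPKM) and PMAIP1 (20.21, 19.2, 5.69 and 10.14 FPKM), which are outside the members. Both were lower in both NRP-1 libraries.

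The pore formers gave nearly flat values. BAK1 had 394, 397, 399 and 445 reads (log2 fold change 0.03, SE 0.14, 95% interval -0.30 to 0.37), and BOK, a relative held in check by protein turnover, had 418, 450, 386 and 448 (-0.12, SE 0.14). BCL2L13, a mitochondrial BCL2 relative also known as a mitophagy receptor, had 599, 615, 483 and 493 reads. Libraries of the same group were nearly equal and both NRP-1 values were lower (log2 fold change -0.37, SE 0.12, 95% interval -0.67 to -0.08, edgeR adjusted p = 0.149). BCL2L12, a mixed member, had 198, 188, 154 and 318 reads, so the NRP-1 libraries lay on opposite sides of the controls (log2 fold change 0.23, SE 0.34, edgeR adjusted p = 0.728). Its locus overlaps IRF3, one of 9 members whose span overlaps another listed gene (the others are BCL2L2, BOK, BAD, CASP6, DIABLO, APAF1, CFLAR and HTRA2), and whether the counting used strand is not given in the sources used here.

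Downstream of the mitochondria, CYCS, the electron carrier cytochrome c, had 2146, 1991, 2439 and 2550 reads, higher in both NRP-1 libraries by a small margin (log2 fold change 0.21, SE 0.12, 95% interval -0.08 to 0.50, edgeR adjusted p = 0.349). APAF1, the apoptosome scaffold, had 345, 320, 450 and 401 (log2 fold change 0.30, SE 0.14, edgeR adjusted p = 0.284). CASP9, the caspase it activates, had 63, 49, 54 and 51 and overlapped. DIABLO, an IAP antagonist, had 559, 571, 550 and 533 (log2 fold change -0.12, SE 0.12, edgeR adjusted p = 0.596), and HTRA2, a mitochondrial protease with the same action, had 196, 174, 175 and 269, high in NRP-1 replicate 3 alone.

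The 3 IAP members differed little between the groups. XIAP, the direct caspase inhibitor, had 1029, 996, 1139 and 1023 reads (log2 fold change 0.04, SE 0.12, 95% interval -0.27 to 0.34). BIRC2, encoding the ubiquitin ligase cIAP1, had 479, 493, 485 and 414 (-0.17, SE 0.14, 95% interval -0.52 to 0.17), and BIRC6, encoding the giant IAP BRUCE, had 984, 1090, 1215 and 1047 (0.07, SE 0.13, 95% interval -0.26 to 0.40). The FPKM ratio of XIAP to DIABLO, also unplanned, was 0.516, 0.483, 0.562 and 0.538. Its exact permutation p (0.33, two-sided) is at the floor for 2 against 2 libraries.

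Caspase transcripts differed little and in both directions. CASP2, an initiator caspase of the PIDDosome, had 750 and 810 control reads against 1021 and 1129 in NRP-1 cells, with no overlap (log2 fold change 0.40, SE 0.12, 95% interval 0.10 to 0.71, edgeR adjusted p = 0.137). CASP6, an executioner, had 307, 298, 385 and 399, also without overlap (0.31, SE 0.14, 95% interval -0.02 to 0.65, edgeR adjusted p = 0.239). CASP8, the initiator of the death receptor route, had 338, 344, 266 and 296, lower in both NRP-1 libraries (-0.34, SE 0.14, 95% interval -0.69 to 0.02, edgeR adjusted p = 0.236). Its close relative CASP10 had 63, 64, 61 and 56 (-0.18, SE 0.24), and CASP4, an inflammatory caspase, had 101, 84, 88 and 63 (-0.35, SE 0.27, edgeR adjusted p = 0.474).

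In the death receptor arm the ligand TNFSF10, which encodes TRAIL, had 429 and 418 control reads against 363 and 173 in NRP-1 cells. NRP-1 replicate 3 had fewer reads than any other library by a wide margin, so the largest fold change among the members (log2 -0.72) also had a wide error (SE 0.33, 95% interval -1.53 to 0.09, edgeR adjusted p = 0.262). It was -1.36 with NRP-1 replicate 2 left out and -0.28 with replicate 3 left out. TNFRSF10A, a receptor for TRAIL, had 95, 108, 150 and 116 reads (log2 fold change 0.33, SE 0.22, edgeR adjusted p = 0.426). The FPKM ratio of TNFSF10 to TNFRSF10A, also unplanned, was 4.10 and 3.51 in control cells and 2.19 and 1.35 in NRP-1 cells. Its exact permutation p (0.33, two-sided) is the smallest that 2 against 2 libraries can give. This ratio leaves out TNFRSF10B, a TRAIL receptor outside the members that had 28.15, 32.33, 12.84 and 14.0 FPKM. It is therefore not the ratio of the ligand to all its receptors.

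The adaptors and the kinase below the receptors did not point one way. RIPK1, a kinase that steers TNF receptor signals to survival or death, had 306 and 296 control reads against 521 and 434 in NRP-1 cells. Both NRP-1 values stood clear of the controls (log2 fold change 0.61, SE 0.15, 95% interval 0.23 to 0.98, edgeR adjusted p = 0.0971, DESeq2 adjusted p = 0.105), and the fold change was 0.46 with NRP-1 replicate 2 left out and 0.73 with replicate 3 left out. TRADD, the adaptor that recruits RIPK1 to TNF receptor 1, had 264, 306, 206 and 164 reads, lower in both NRP-1 libraries (-0.68, SE 0.19, 95% interval -1.14 to -0.22, edgeR adjusted p = 0.112).

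FADD, the adaptor for caspase-8, had 424, 396, 386 and 517 reads and overlapped (log2 fold change 0.08, SE 0.18, edgeR adjusted p = 0.827). CFLAR, which encodes cFLIP, had 1725, 1747, 2060 and 1721 (0.06, SE 0.14, 95% interval -0.27 to 0.40, edgeR adjusted p = 0.816). The FPKM ratio of CFLAR to CASP8 was 1.38, 1.45, 2.37 and 1.57, with NRP-1 replicate 2 the farthest from the rest. These are levels in bulk RNA, in which fewer cells with a transcript and less of it per cell cannot be told apart.

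Both NRP-1 libraries lay outside the control pair on the same side, in CPM (reads scaled to library size by TMM), for 16 of the 31 members (7 higher and 9 lower), beside 56.2% of all genes (27.9% higher and 28.3% lower). In FPKM it was 15, MCL1 being the one that then overlapped, beside 56.6% of all genes. The higher ones were BCL2L1, CASP2, CASP6, CYCS, APAF1, RIPK1 and TNFRSF10A. The lower ones were MCL1, BCL2L13, BMF, CASP8, CASP10, BIRC2, DIABLO, TRADD and TNFSF10.

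The 2 NRP-1 libraries differed from each other more than the controls did. A log2 ratio of at least 0.5 in size between NRP-1 replicates 3 and 2 was found in 6 members, beside 27.9% of all genes. Between the control libraries it was found in 0 members, beside 10.1% of all genes. Of the 11531 genes that averaged 50 reads or more, 2539 reached it in the NRP-1 pair and 386 in the control pair. Every tested member is among those 11531. In replicate 3 BCL2L12 (log2 ratio 1.04), HTRA2 (0.62), BAD (0.56) and BID (0.50) were higher and TNFSF10 (-1.07) and BCL2L1 (-0.51) were lower. The median size of this ratio over the tested members was 0.23 in the NRP-1 pair and 0.09 in the control pair, and over all genes it was 0.29 and 0.14. With 1 library on each side these ratios carry no test.

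**Figure D4:**
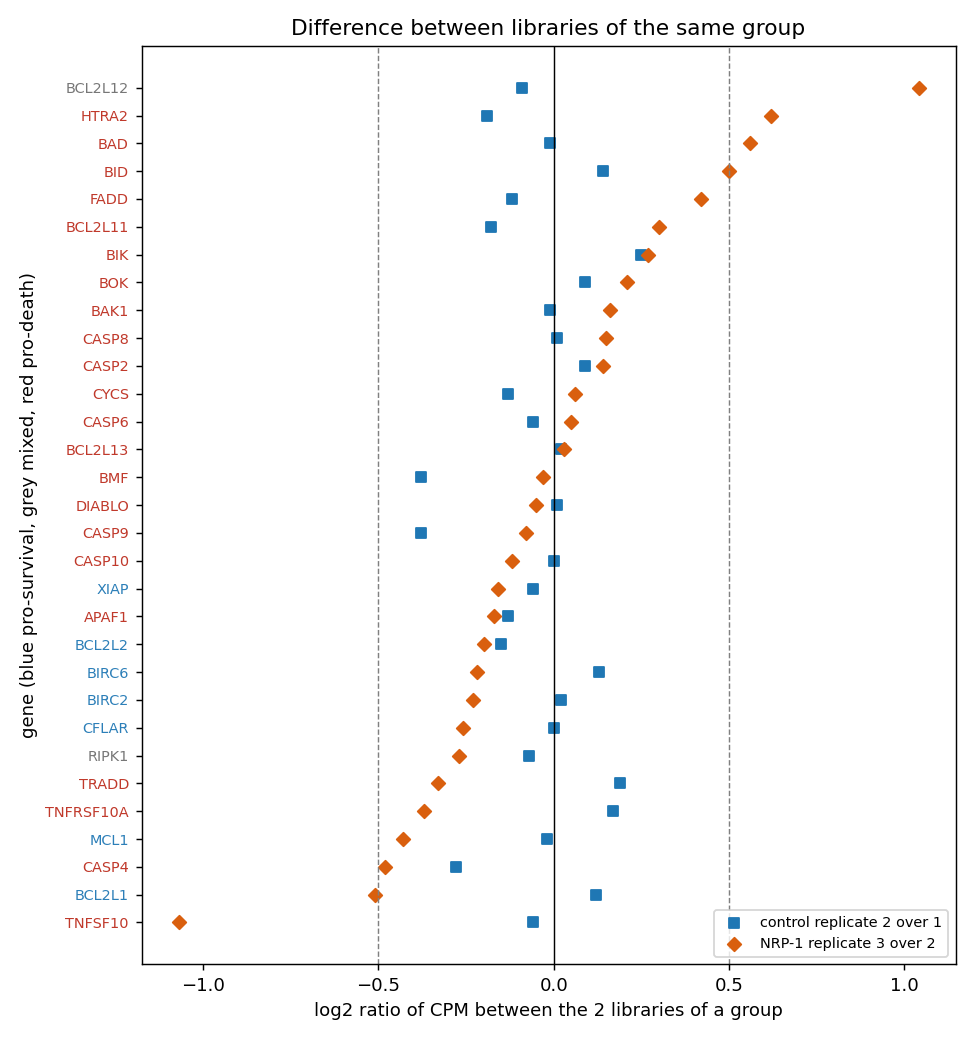
Log2 ratio of CPM between the 2 libraries of a group for the 31 tested members, NRP-1 replicate 3 over 2 as orange diamonds and control replicate 2 over 1 as blue squares, with dashed lines at -0.5 and 0.5. All squares lie within the lines, while 6 diamonds lie on or beyond them, from TNFSF10 at -1.07 to BCL2L12 at 1.04.

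Beyond the 34 members, a list of 54 other death-signalling genes was examined, of which 43 were tested and 2 were called, both lower in NRP-1 cells, beside the 1.09% called over all genes. TNFRSF10B, which encodes the second TRAIL receptor DR5, had 952 and 1107 control reads against 438 and 480 in NRP-1 cells. The groups were far apart and the NRP-1 libraries close together (log2 fold change -1.22, SE 0.14, 95% interval -1.56 to -0.89, edgeR adjusted p = 0.0384, DESeq2 adjusted p = 5.36e-07). BBC3, which encodes the BH3-only protein PUMA, had 377 and 426 against 135 and 83 (-1.94, SE 0.25, 95% interval -2.56 to -1.32, edgeR adjusted p = 0.0442, DESeq2 adjusted p = 7.21e-08). Both edgeR calls were lost without the filter on low counts, without either control library and in limma on FPKM, while both log2 fold changes stayed below -1 under each of these.

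DESeq2 called 7 of the 43, beside 6.67% of all genes, and at an unadjusted p under 0.05 edgeR gave 15 (8 higher and 7 lower), beside 22.9%. With those 2, the DESeq2 calls were PMAIP1, BIRC3, BIRC5, TNF and CASP14, the last 2 being named after their values were seen. TNF, the cytokine ligand of the TNF receptors, had 53, 67, 0 and 6 reads (edgeR adjusted p = 0.0623, DESeq2 adjusted p = 4.57e-05), and CASP14, a caspase of skin differentiation, had 36, 49, 242 and 58, with the NRP-1 libraries far apart (edgeR adjusted p = 0.191, DESeq2 adjusted p = 0.0456). PMAIP1, encoding the BH3-only protein NOXA, a partner of MCL1, had 325, 311, 93 and 167 reads (log2 fold change -1.35, SE 0.28, edgeR adjusted p = 0.0748). BIRC3, encoding cIAP2, had 100, 90, 45 and 36 (-1.29, SE 0.25, edgeR adjusted p = 0.0701). BIRC5, encoding survivin, had 191, 249, 416 and 841, with the NRP-1 libraries far apart (1.46, SE 0.35, edgeR adjusted p = 0.0879).

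The pore former BAX had 216, 191, 185 and 211 reads, and the groups overlapped (log2 fold change -0.10, SE 0.18, 95% interval -0.53 to 0.34, edgeR adjusted p = 0.779). FAS, the receptor for FAS ligand, had 1, 2, 4 and 8 reads and was not tested. Over the 43 tested genes the median log2 fold change was -0.03, with 20 above 0 and 23 below.

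**Figure D5:**
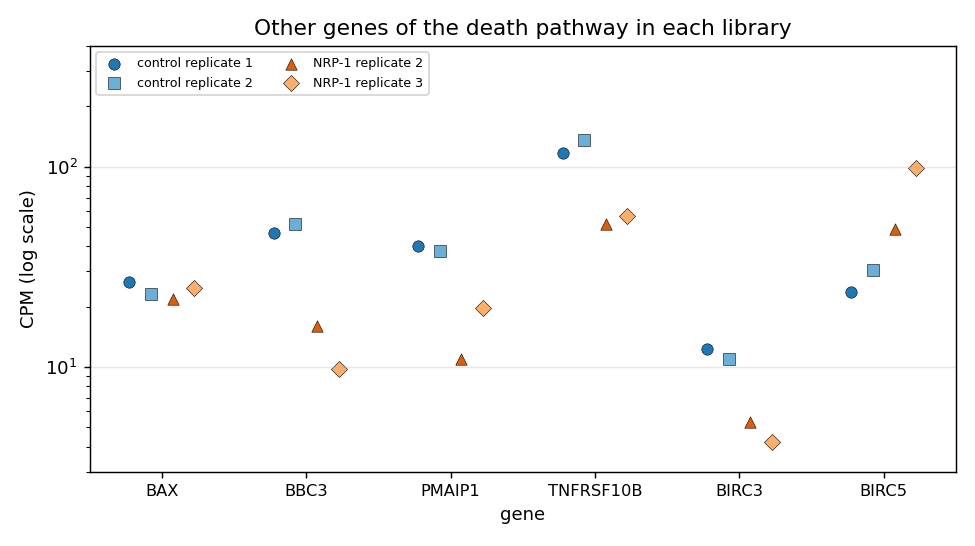
CPM on a log axis of 6 death-signalling genes outside the 34 members in each library. For BBC3 and TNFRSF10B both NRP-1 points lie well below both control points (135 and 83 reads against 377 and 426, and 438 and 480 against 952 and 1107), and BAX is nearly level.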

How the data were processed

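Oligo(dT)-selected RNA of 2 control and 2 NRP-1 libraries was sequenced on an Illumina instrument. The submitters' processing notes name bcl2fastq 2.16, HISAT2 2.0.1, Bowtie2 2.2.5 and RSEM, with builds GRCh38 and hg19 and no role for either. The authors deposited, per library, an expected count for each gene (an estimate, with 32.8% of listed values not whole) and an FPKM, that count scaled to transcript length and library size. A table of group mean FPKM, log2 ratios and probabilities from the authors' own comparison was not used. A gene not listed in a library was taken as 0. Of the gene IDs, 99.4% matched a RefSeq symbol.

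Expected counts were rounded, scaled by TMM (factors 0.986 to 1.01) and filtered by filterByExpr, and 14298 genes were tested with the quasi-likelihood test of edgeR 4.0.16 in R 4.3.3, with group as the only term and Benjamini-Hochberg adjustment over all of them. A gene was called at an adjusted p under 0.05. SE is the log2 fold change divided by the root of its F. Alternatives were DESeq2 1.42.0, no TMM, no filter, limma 3.58.1 on log2(FPKM + 1) or log2(FPKM + 0.1) with a mean FPKM of at least 0.5 or unfiltered, summed reads of near-identical genes, each library left out and, added after the data were seen, a block of the pairs that the study's supplement sets side by side. Ratios were compared by exact permutation (scipy 1.17.1) and were not among the planned tests. The scripts were tested on simulated data with log2 changes of 2 in size, where edgeR recovered 178 of 200 changed genes with 21 false calls. Changes as small as those of the members were not simulated.

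All members were named. Of the other death-signalling genes those called by edgeR, and BAX, BBC3, PMAIP1, BIRC3, BIRC5, TNFRSF10B and FAS, were named, and some items that this rule takes in are not reported here. The members and lists were chosen with earlier results of these data known.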

Additional observations from a re-analysis of the deposited data

How the results depend on the processing

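Of 220 comparisons of a tested member's fold change with an alternative that kept all 4 libraries, 220 kept the direction and the side of the threshold. They include the block of pairs that was added after the data were seen. No member was called in the main fit, and the edgeR fit without a filter and the limma fits called 0 to 7 of all genes. Staying uncalled in those fits therefore says little. Leaving out 1 library gave 124 comparisons, of which 90 kept both, 20 passed the threshold and 14 changed sign. Members called numbered 0 to 11 over the omissions (11 with NRP-1 replicate 2 left out and 9 with replicate 3 left out, where 36.8% and 28.2% of all genes were called, and 0 without either control, where 0 of all genes were called too), pro-survival members 0 to 1 and pro-death members 0 to 8. The lone library is then assumed to vary like the remaining pair, so with 1 NRP-1 library the spread comes from the control pair, whose biological coefficient of variation was 0.064 against 0.225 in the NRP-1 pair. All genes called (156) became 954 with DESeq2, 0 without a filter, 7 and 3 with limma at pseudocounts of 1 and 0.1, 0 with limma unfiltered, and 0 to 5414 over the omissions. The other death-signalling genes called (2) became 7 with DESeq2, 0 without a filter, 0 in the 3 limma fits and 0 to 21 over the omissions. The members' median (0.03) was 0.07 without TMM, 0.06 in each limma fit and -0.11 to 0.04 over the omissions, the pro-survival median -0.08 to 0.11 and the pro-death median -0.12 to 0.04. NRP1 lost its call at a log2 fold change of 3.38 without a filter, 1.28 and 2.87 in limma at pseudocounts of 1 and 0.1, and 1.28 in limma unfiltered, and ranged from 2.96 to 3.70 over the omissions. Changes of sign over the omissions came within ranges of -0.18 to 0.03 for BCL2L2, -0.38 to 0.65 for BCL2L12, -0.04 to 0.10 for BAK1, -0.15 to 0.39 for BAD, -0.11 to 0.39 for BID, -0.11 to 0.16 for BIK, -0.33 to 0.05 for CASP9, -0.05 to 0.11 for XIAP, -0.06 to 0.17 for BIRC6, -0.14 to 0.26 for FADD, -0.08 to 0.19 for CFLAR and -0.14 to 0.47 for HTRA2. The cause was not tested. Summing reads over BCL2L2 and BCL2L2-PABPN1, CYCS and its listed pseudogene CYCSP52, or CASP4 and CASP5 changed no call. CYCS and CASP4 held 99 to 100% of their sums, so those sums could hardly differ from the genes alone.

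The labels pair no libraries, since the groups share only replicate number 2. The supplement of the study sets NRP-1 replicate 2 against control 1 and NRP-1 replicate 3 against control 2 without saying what they share, and a replicate block of these pairs, added after the data were seen, called 0 members, 6 of the other death-signalling genes and 702 of all genes. It kept the calls of BBC3 (-1.96, edgeR adjusted p = 0.0115), TNFRSF10B (-1.22, edgeR adjusted p = 0.0116) and NRP1. BCL2, HRK and FAS had too few reads to be tested.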
